A study of Homo sapiens with 2 samples.

Results

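The genes described here encode ubiquitin-conjugating (E2) enzymes, read in DLD-1 cells on 2 arrays. Of 33 listed E2 genes, 26 had a probe set annotated to that gene alone, and all 26 gave a measurable signal. They are 26 of 13915 genes measured in the series. The other listed genes, UBE2D1, UBE2D2, UBE2D3, UBE2V1, UBE2M, UBE2L3 and UBE2W, had no probe set of their own in the annotation table and were not analysed here. The genes were listed by name as a family, but the list was drawn up with earlier results of these data known.

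DLD-1 is an established line from a human colorectal carcinoma, and its endogenous p53 is mutated. Both groups were stably transfected with wild-type p53 under a tet-off system, in which tetracycline silences the transgene. The p53 off cells were grown with tetracycline, and the p53 on cells had spent 9 h without it. Each condition was measured on 1 Affymetrix array, so every ratio describes these 2 arrays, has no replicate error and was not tested. The labels do not say if the transfected line was 1 clone or a pool. An array of a whole culture cannot tell less of a transcript in each cell from fewer cells that hold it.

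Ubiquitin is attached to proteins by a relay. An E1 enzyme activates it, an E2 enzyme carries it on a catalytic cysteine, and an E3 ligase brings the loaded E2 to the substrate. The E2 often decides which lysine of ubiquitin is used to build a chain, and so whether the target is degraded by the proteasome or marked for signalling or repair. A few members of the family carry ubiquitin-like proteins instead, such as NEDD8 or ISG15. In dividing cells, the best known E2 enzymes are those of the anaphase-promoting complex (APC/C), the ligase that destroys cyclins and securin in mitosis.

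Values are linear signals from the MAS5 software, and a gene's value is that of its brightest probe set, by mean over the arrays. The floor was 112.4, the median of all signals, and lower signals were raised to it. Log2 ratios set p53 on over p53 off, so negative values are lower with p53 on. Without replicates, genes were counted past fixed folds of 2 and 1.5. All 26 E2 genes were above the floor on both arrays on their brightest probe set, so none of these ratios is a bound.

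The known p53 target CDKN1A, the gene of the p21 inhibitor, went from 2723 (p53 off) to 23349 (p53 on), and MDM2, the ligase that degrades p53, read 2047 and 11792. Of 12 colon epithelial markers, 9 were measured, among them EPCAM, KRT8 and CDH17, while KRT20, CDX1 and GPA33 lay under the floor on both arrays. The leukocyte gene PTPRC, the fibroblast genes COL1A1 and COL3A1 and the endothelial gene KDR were under the floor on both. Other markers of these cell types were dim, and most of those measured lay above the floor on the p53 on array alone, apart from COL1A2 (on the p53 off array alone) and PECAM1 (on both): 3 of 8 leukocyte, 4 of 6 fibroblast and 3 of 5 endothelial markers were measured, with median log2 ratios (p53 on over p53 off) of 0.92, 0.56 and 0.67. The brightest of each type were LAPTM5 at 62.7 (p53 off) and 247.9 (p53 on), LUM at 49.4 and 231.4, and PECAM1 at 121.1 and 224.3. Summed over the markers with a probe set, the signals were 274.2 and 891.7 for leukocytes, 375.9 and 820.6 for fibroblasts, and 233.2 and 611.4 for endothelium. Their part in the E2 ratios was not tested. Control probe sets differed between the arrays. The 3' probe set of beta-actin was brighter than its 5' one by 1.37 times with p53 off and by 7.29 times with p53 on. For GAPDH the same ratio was smaller, at 0.974 with p53 off and 1.77 with p53 on. The 18 spike-in probe sets (the array controls BioB, BioC, BioD and Cre) were brighter with p53 on, by 1.89 times at the median. Whether they track the amount of RNA from the cells was not tested. Where the E2 probe sets lie along their transcripts was not looked up, and the part of these differences in the E2 ratios was not tested.

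With p53 on, 6 of the 26 E2 genes (23.1%) were lower by 2-fold or more, against 13.5% of all measured genes. Only 2 (7.69%) were higher by that size, against 15.3% of all measured genes. The 6 lower genes were UBE2T, UBE2C, UBE2S, UBE2R2, UBE2E3 and UBE2Z, and the 2 higher ones were UBE2Q2 and UBE2J1. At 1.5-fold, 8 were lower and 3 higher, against 25.9% of all measured genes in each direction, and 15 lay between. BIRC6 and UBE2O joined the lower genes at this size and UBE2H the higher ones. The median log2 ratio of the E2 genes was -0.29, against 0.0035 over all measured genes. When _x_at and _s_at probe sets, which can match more than 1 transcript, were left out, 20 E2 genes remained, with 3 at least 2-fold lower and a median of 0.0088, against 12.4% lower and a median of 0.038 over all genes in that setting. The share of lower E2 genes was then near that of all genes. UBE2S and UBE2E3, each with 1 probe set of the _s_at kind, could not be read in that setting. UBE2Z was read there on another probe set, at 0.39. The middle 50% of E2 genes lay between -0.76 and 0.35, and that of all measured genes between -0.61 and 0.61. A single gene makes up 3.85% of the 26.

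**Figure D1:**
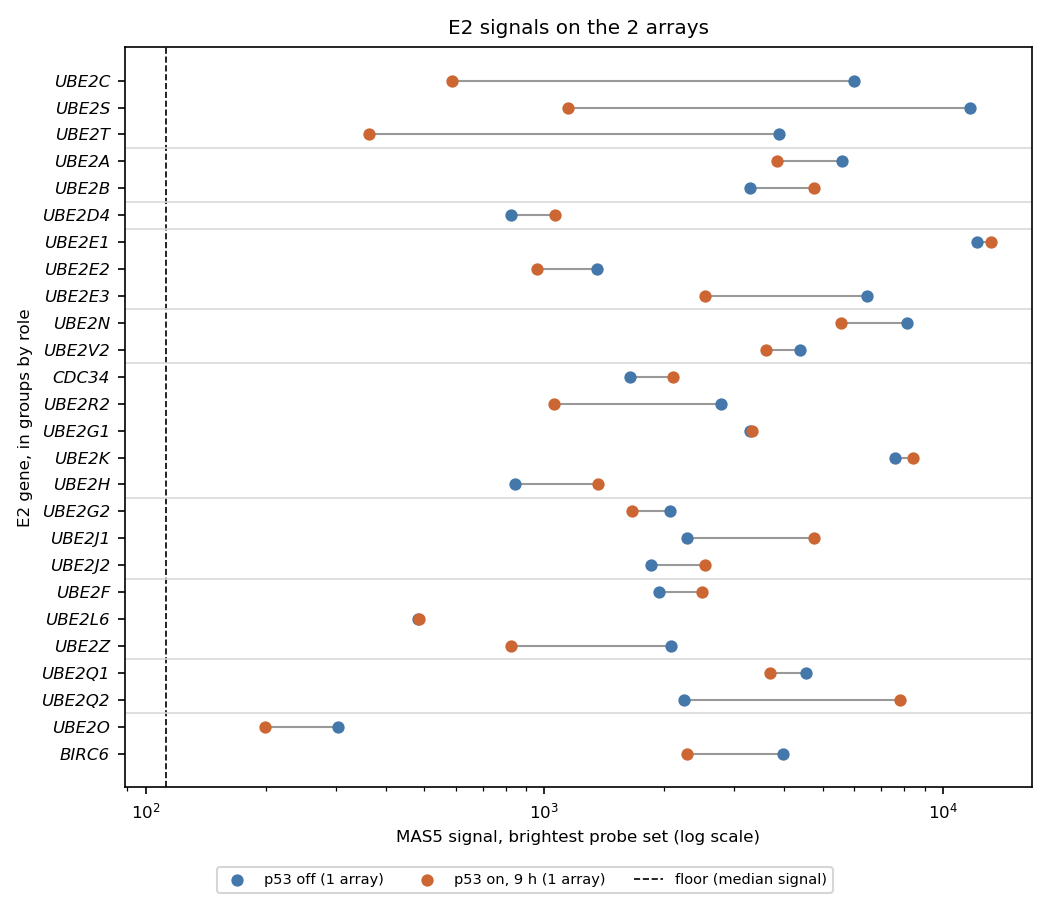
MAS5 signals of the 26 E2 genes on a log axis, with a blue point for the p53 off array, an orange point for the p53 on array and genes grouped by role. The long bars of UBE2C, UBE2S and UBE2T run from signals of 3874 to 11692 with p53 off down to 364.1 to 1149 with p53 on, while most other bars are short.

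The family was therefore split between 3 genes far below the rest and a broad middle. UBE2T, UBE2C and UBE2S were the 8th, 9th and 10th lowest of the 13915 measured genes. The next E2 gene, UBE2R2, had a log2 ratio of -1.39, against -3.35 for UBE2S. At the other end, UBE2Q2 had 6.07% of all measured genes above it, so on the brightest probe sets no E2 gene was among the highest ratios of the array.

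**Figure D2:**
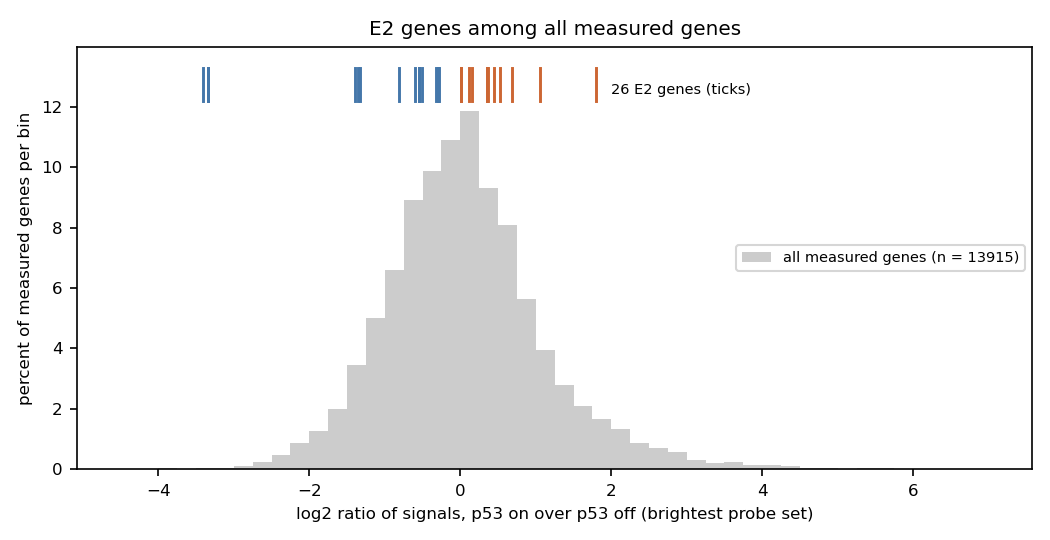
Histogram of the log2 ratios of 13915 measured genes (bins of 0.25, percent of genes per bin), with a tick above it for each of 26 E2 genes. The leftmost ticks are UBE2T, UBE2C and UBE2S, between -3.41 and -3.35, and the remaining ticks lie between -1.39 and 1.80.

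The sequences upstream of UBE2T, UBE2S and UBE2Q2 are shown because their ratios lie at either end of the family. RefSeq promoter windows (GRCh38.p14, from 250 bases before to 50 after an annotated start) were matched by symbol for 21 of the 26 genes, and the other 5 were UBE2C, UBE2B, UBE2H, UBE2V2 and UBE2Q1. The 250 bases before the start are printed 5' to 3' on the gene's strand. Capitals mark each TTTGAA or TTTAAA (the spellings of the cell cycle homology region), each CCAAT box, and any TTTGGCGC or TTTCCCGC (E2F-like) or p53 half-site, searched on both strands with overlaps allowed. The windows lie at chr1:202341937-202342186 (- strand) for UBE2T, chr19:55407789-55408038 (- strand) for UBE2S and chr15:75843197-75843446 (+ strand) for UBE2Q2, the first of 2 windows of that gene.
UBE2T: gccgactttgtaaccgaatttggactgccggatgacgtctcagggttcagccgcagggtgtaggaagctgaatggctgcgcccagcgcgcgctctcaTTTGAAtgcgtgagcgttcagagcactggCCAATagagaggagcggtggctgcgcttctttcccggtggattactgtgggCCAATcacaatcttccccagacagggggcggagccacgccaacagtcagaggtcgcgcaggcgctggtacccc
UBE2S: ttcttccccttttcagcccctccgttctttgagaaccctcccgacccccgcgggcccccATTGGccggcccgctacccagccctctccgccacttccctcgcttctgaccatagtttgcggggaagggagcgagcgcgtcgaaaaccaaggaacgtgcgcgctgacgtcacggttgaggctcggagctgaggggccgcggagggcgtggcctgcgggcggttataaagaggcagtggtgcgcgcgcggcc
UBE2Q2: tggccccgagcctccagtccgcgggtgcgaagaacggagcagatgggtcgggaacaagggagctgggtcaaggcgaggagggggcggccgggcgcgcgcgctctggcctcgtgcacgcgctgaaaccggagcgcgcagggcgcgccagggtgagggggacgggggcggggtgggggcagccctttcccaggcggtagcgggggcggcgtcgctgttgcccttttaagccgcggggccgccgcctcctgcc

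UBE2T holds 1 TTTGAA, which starts 153 bases before the start site, and CCAAT boxes that start 124 and 73 bases before it. UBE2S holds 1 CCAAT box on the opposite strand, 191 bases before its start. The printed UBE2Q2 window holds none of these motifs. TTTGAA or TTTAAA occurred in 3 of the 21 E2 genes (UBE2T, UBE2K and UBE2F), against 27.9% of all 27305 genes in the table. CCAAT occurred in 6 of the 21 (UBE2S, UBE2T, UBE2E1, UBE2E3, UBE2F and UBE2Z), against 39.7% of all genes. The E2F-like spellings occurred in 0 of the 21 and in 2.75% of all genes, and the p53 half-site in 0 of the 21 and 8.06% of all genes. These are letter matches in 300 bases, not binding sites. UBE2K and UBE2F, which also hold TTTGAA or TTTAAA, had log2 ratios of 0.15 and 0.35. UBE2F has no settled direction, because its remaining probe sets gave -0.08, -0.58 and -0.79. A link between motif and ratio was not tested.

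The E2 enzymes of mitosis and of crosslink repair had the lowest ratios. UBE2C, which starts ubiquitin chains on substrates of the APC/C, went from 5983 (p53 off) to 587.7 (p53 on), 10.2-fold lower. UBE2S, which extends those chains, read 11692 and 1149, also 10.2-fold lower. Both partners of this relay thus had nearly the same ratio, -3.35 each. UBE2T, the E2 that works with the ligase FANCL to mark FANCD2 and FANCI with single ubiquitins at DNA crosslinks, read 3874 and 364.1, 10.6-fold lower. Each of the 3 genes had 1 probe set, so none has a second reading on the array. The UBE2S probe set carries the suffix _s_at, which marks probes that match several transcripts, of 1 gene or more.

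The counts of ligase and pathway genes given from here on can be read against the 25.9% of all measured genes past 1.5-fold in each direction. Of 16 measured genes of the APC/C, its activators and its inhibitor, 8 were at least 1.5-fold lower and none was that much higher, with a median log2 ratio of -0.62. The other 8 lay within 1.5-fold, up to 0.37 for ANAPC16. FBXO5, the inhibitor EMI1, had the lowest ratio there, with signals of 1317 and 286.5, a log2 ratio of -2.20, and its other probe set lower as well. CDC27, a core subunit, read 3209 and 1003, with all 4 of its probe sets lower. FZR1, the activator CDH1, had a ratio of -1.43, but 1.19 on one of its dimmer probe sets. UBE2C and UBE2S lay below all 16 of these genes on their brightest probe sets, although the dimmer set of FBXO5, at -3.43, was lower still.

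Of 12 measured Fanconi genes around the FANCL step, 8 were at least 1.5-fold lower and none was that much higher, with a median of -0.63. The other 4 lay within that fold, up to 0.58 for USP1. FANCL itself read 3906 and 1428, 2.73-fold lower. FANCG and FANCE, subunits of the same core complex, were 4.18-fold and 3.39-fold lower, at 2786 and 666.9 and at 723.7 and 213.4. All 3 rest on 1 probe set each, and UBE2T lay below each of them.

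UBE2A and UBE2B encode the close human RAD6 homologues, which mark PCNA with RAD18 and histone H2B with RNF20 and RNF40. They went opposite ways. UBE2A went from 5597 (p53 off) to 3843 (p53 on), a log2 ratio of -0.54, and its other probe set was lower by 1.15. UBE2B read 3288 and 4737, a ratio of 0.53, and its 4 other measured probe sets lay between 0.39 and 0.97. The probe sets of the 2 genes did not overlap in ratio, although neither gene passed 1.5-fold on its brightest probe set. Scaling to the spike-ins, which shifts the whole array, put UBE2B at -0.39 and UBE2A at -1.46. Of 10 measured genes of the RAD6 pathway, 3 were at least 1.5-fold lower, near the share of all genes, and 1 higher. RNF40, a ligase for histone H2B, had the lowest ratio of that list at -1.43, with -0.27 on its other measured probe set. UBR1, a ligase of the N-degron pathway, had the highest at 1.09.

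UBE2D4 was the measured gene of the broadly acting UBE2D family, whose enzymes work with many ligases and place the first ubiquitin. It read 823.5 and 1065, a ratio of 0.37, and its 4 other probe sets lay between -0.32 and 0.45. The sign was thus not shared within the gene.

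The UBE2E family, whose enzymes carry an extra N-terminal stretch, was graded. UBE2E1 read 12209 and 13182, a log2 ratio of 0.11, and its other probe set read 40.9, under the floor, and 197.7. UBE2E2 read 1357 and 958.5, a ratio of -0.50. UBE2E3 read 6460 and 2529 and was 2.55-fold lower, with 6.86% of all measured genes below it. UBE2E2 and UBE2E3 had 1 probe set each, and that of UBE2E3 is an _s_at set. The sign of UBE2E1 turned to -0.055 after loess and to -0.81 when scaled to the spike-ins.

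UBE2N builds chains through lysine 63 of ubiquitin, used in NF-kB signalling and DNA damage tolerance, together with a partner that lacks the catalytic cysteine. UBE2N read 8110 and 5535, a ratio of -0.55, and its other probe sets gave -0.89 and -0.92. All 3 were lower, and 2 of them, the less bright ones, passed 1.5-fold. UBE2V2, one of these partners, read 4375 and 3604, a ratio of -0.28, with its other probe sets at -0.38 and -0.08. Of 7 measured ligases that use this chain type, 1 passed 1.5-fold. It was RNF8, a ligase at DNA breaks, which read 1106 and 293.4, a log2 ratio of -1.91.

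Among the E2 enzymes of cullin ligases and lysine 48 chains, the close relatives CDC34 and UBE2R2 differed. Both extend chains on substrates of the SCF ligases. CDC34 read 1644 and 2100, a ratio of 0.35 on its 1 measured probe set. UBE2R2 read 2778 and 1059, 2.62-fold lower, and its other probe set read 754.5 and 291.1, 2.59-fold lower. UBE2R2 was the E2 gene lower by at least 2-fold on each of more than 1 probe set, and no other E2 gene met that. The ratio of UBE2R2 lay 1.75 below that of CDC34 on the log2 scale.

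UBE2G1, an E2 that extends chains for CUL4 ligases, read 3287 and 3319, a ratio of 0.014, while its other probe sets gave -0.36 and -0.39. UBE2K, which builds lysine 48 chains, read 7563 and 8417, a ratio of 0.15, with the others at 0.28 and 0.0040. UBE2H, the E2 of the CTLH ligase, read 843.0 and 1361, a ratio of 0.69. Of its 7 measured probe sets 6 were higher and 1 lower, from -0.20 to at least 0.84. The sets at 0.75 and 0.84 had p53 off signals under the floor, so both ratios are lower limits. These genes had small ratios, apart from UBE2H, which passed 1.5-fold on its brightest probe set.

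Of 17 measured genes of the cullin-RING core, 10 were at least 1.5-fold lower and 2 higher, with a median of -0.87. DCUN1D5, which helps attach NEDD8 to cullins, was lowest at -1.65, with 0.17 on its dimmer measured probe set. CUL5, a cullin scaffold, and RNF7, its RING partner, were 2.78-fold and 2.69-fold lower, with every measured probe set of both lower. The CTLH list had no common direction, with 3 of 10 genes past 1.5-fold on either side. GID4, its substrate receptor, read 104.2 and 731.1 and was at least 6.51-fold higher. RMND5A, a catalytic subunit, was lower by 1.17 on the log2 scale, and its measured probe sets ranged from -1.17 to -0.20.

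The E2 enzymes of the endoplasmic reticulum, which serve the disposal of misfolded proteins, were split as well. UBE2J1, anchored in the membrane of this organelle, went from 2282 (p53 off) to 4752 (p53 on), 2.08-fold higher. Its 5 other probe sets were all higher, between 0.75 and 2.40, and no other of the 26 genes had as many measured probe sets of 1 sign without an exception. The highest of them read 466.1 and 2468, 5.30-fold higher. UBE2J2, its relative, read 1857 and 2524, a ratio of 0.44, but its other measured probe sets gave -0.04 and -0.89. The probe sets of UBE2J1 lay above those of UBE2J2 without overlap. UBE2G2, a soluble E2 of the same pathway, read 2063 and 1657, a ratio of -0.32, with the others at -0.48 and -1.16. Of 11 measured ligases and adaptors of this pathway, 4 (36.4%, against 25.9% of all genes) were at least 1.5-fold lower and 1 (9.09%) higher. The lowest was TRIM13 at -1.83, with -0.27 on its other measured probe set. On the brightest probe sets UBE2J1 lay above all 11 of these ligases and adaptors, of which the highest had a ratio of 0.93.

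**Figure D3:**
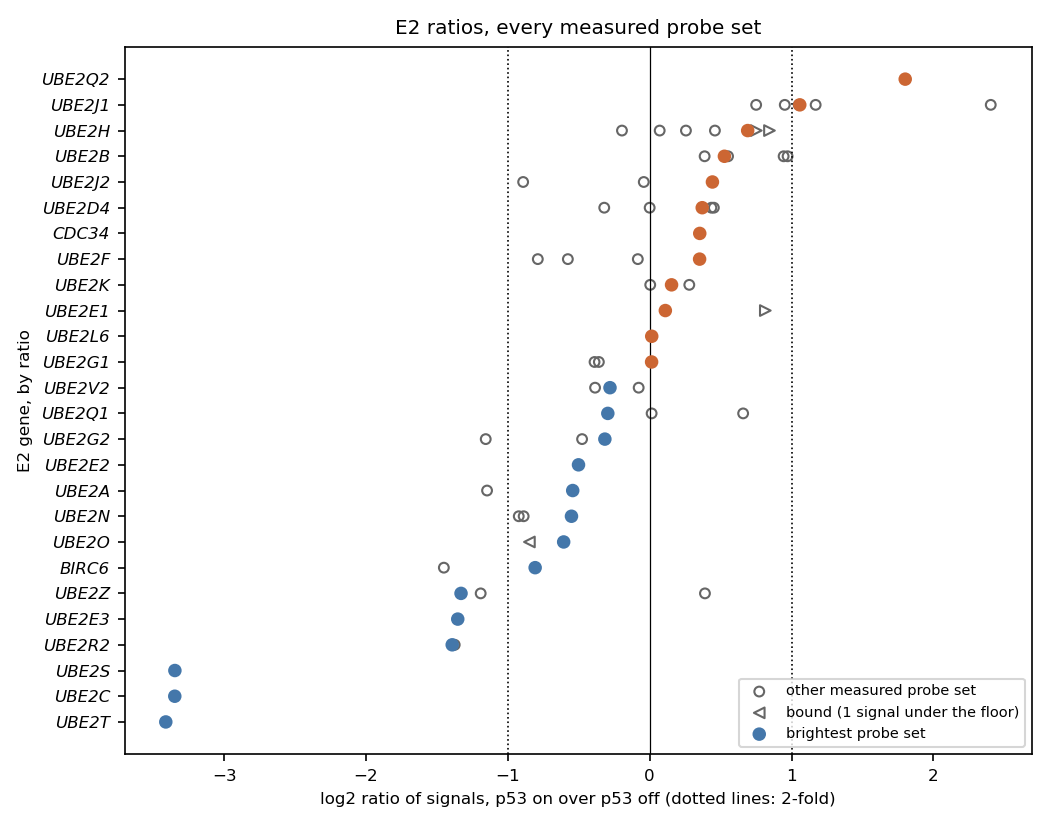
Log2 ratios (p53 on over p53 off) of the 26 E2 genes, with a filled point for the brightest probe set, open circles for other measured probe sets and open triangles for those with 1 signal under the floor. The 6 probe sets of UBE2J1 all lie right of 0, those of UBE2R2 coincide near -1.39, and UBE2Z, UBE2F and UBE2J2 have probe sets on both sides of 0.

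Of the E2 enzymes for ubiquitin-like proteins, UBE2F attaches NEDD8 to CUL5 with RNF7. It read 1944 and 2481, a ratio of 0.35, but its 3 other probe sets were lower, at -0.08, -0.58 and -0.79, so it has no settled direction. UBE2L6, the E2 for the interferon-induced modifier ISG15, read 481.3 and 486.2, a ratio of 0.015 on its 1 probe set. ISG15 itself read 4104 and 9086 and USP18, the protease that removes it, 515.4 and 1174, each more than 2-fold higher, while HERC5, the main ligase of this pathway, was lower by 0.98. UBE2L6 thus stood near 0 between pathway genes on either side.

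UBE2Z, which receives ubiquitin or FAT10 from the E1 enzyme UBA6, read 2074 and 825.2, 2.51-fold lower. A second probe set read 642.9 and 281.5, 2.28-fold lower, and the last, a dim one, read 164.2 and 215.1, a ratio of 0.39. The 2 lower sets are _s_at sets, and without such sets only the dim one remained. UBA6 read 2791 and 1564, a ratio of -0.84, with all 4 of its measured probe sets lower. UBA1, the main E1 enzyme for ubiquitin, had a ratio of -0.84 on its brightest probe set and 0.04 on the other. Of 6 measured E1 genes, 3 were at least 1.5-fold lower and none was that much higher. The lowest was SAE1, a subunit of the E1 for SUMO, at -1.33.

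UBE2Q2 and UBE2Q1 encode E2 enzymes with a long N-terminal part and less well defined targets. UBE2Q2 went from 2238 (p53 off) to 7802 (p53 on), 3.49-fold higher, the largest increase among the 26 on the brightest probe sets. It rests on 1 probe set. Without _x_at and _s_at sets its log2 ratio was 1.80, and UBE2J1 lay above it at 2.40. UBE2Q1 read 4523 and 3687, a ratio of -0.29, with its dimmer probe sets at 0.66 and 0.014. The ratio of UBE2Q2 was 2.10 above that of UBE2Q1 on the log2 scale, beyond all probe sets of the latter.

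The large E2 enzymes that also act as ligases were both lower. BIRC6, a giant inhibitor of apoptosis, read 3981 and 2275, a ratio of -0.81, and its other probe set read 2238 and 818.5, a ratio of -1.45. UBE2O, which clears unassembled proteins, was dim at 303.2 and 199.2, a ratio of -0.61. Its other probe set read 202.2 and, under the floor, 20.7, so it was at least 1.80-fold lower. Each gene passed 1.5-fold on both of its probe sets.

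Over the family, 18 of the 26 genes had more than 1 measured probe set, and in 11 of these all had the same sign. The 43 further probe sets differed from the brightest by 0.37 (log2, median), against 0.56 over all genes. This spread is the only repeat reading in the data, and it leaves out any difference between cultures. The ratios of UBE2D4, UBE2G1, UBE2H, UBE2J2, UBE2F, UBE2Z and UBE2Q1 had both signs among their probe sets.

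**Figure D4:**
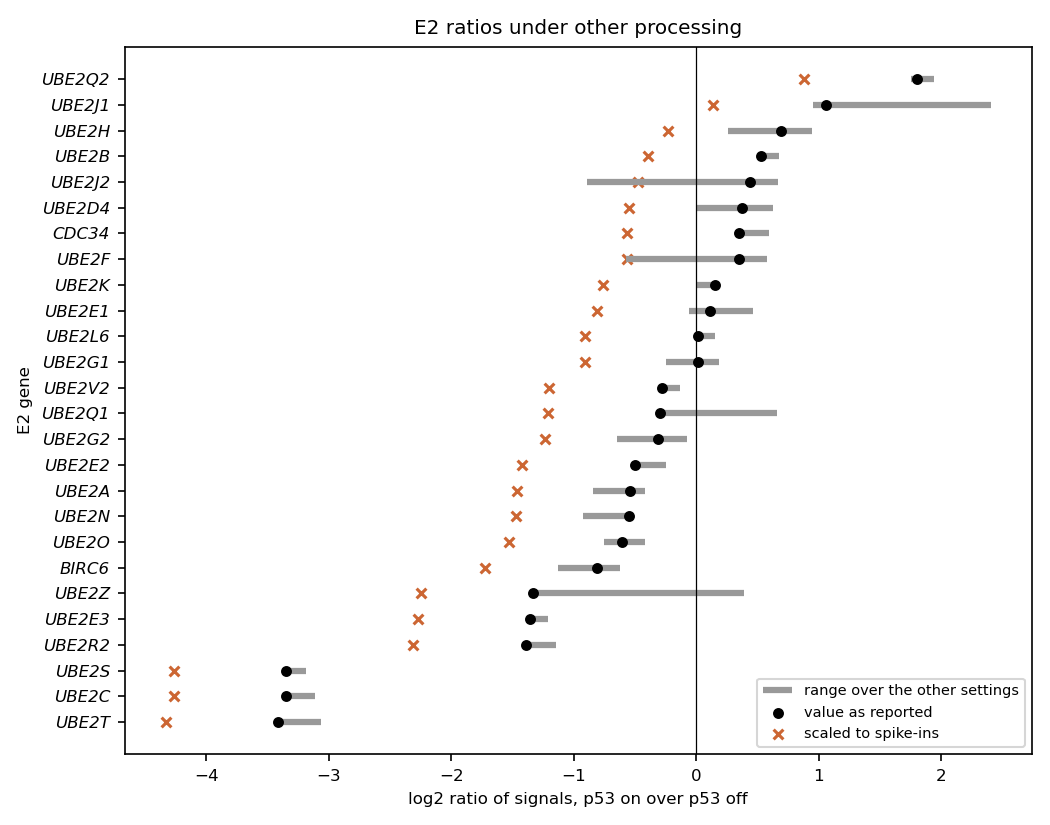
Log2 ratios of the 26 E2 genes as reported (black points), their range over 11 other settings of floor, scaling and probe set (grey bars), and their value when the arrays are scaled to the spike-ins (orange crosses). The crosses lie 0.92 lower for most genes and leave UBE2Q2 (0.88) and UBE2J1 (0.14) above 0, and the grey bars of UBE2C, UBE2S and UBE2T stay below -3.

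All directions above are relative to a common scaling of the arrays. Scaled to the spike-ins, the E2 genes had a median of -1.21 and all measured genes one of -0.80, with 14 E2 genes at least 2-fold lower and none that much higher, beside 41.4% and 5.86% of all genes. Every E2 gene reported as higher other than UBE2Q2 and UBE2J1 then had a negative ratio.

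**Figure D5:**
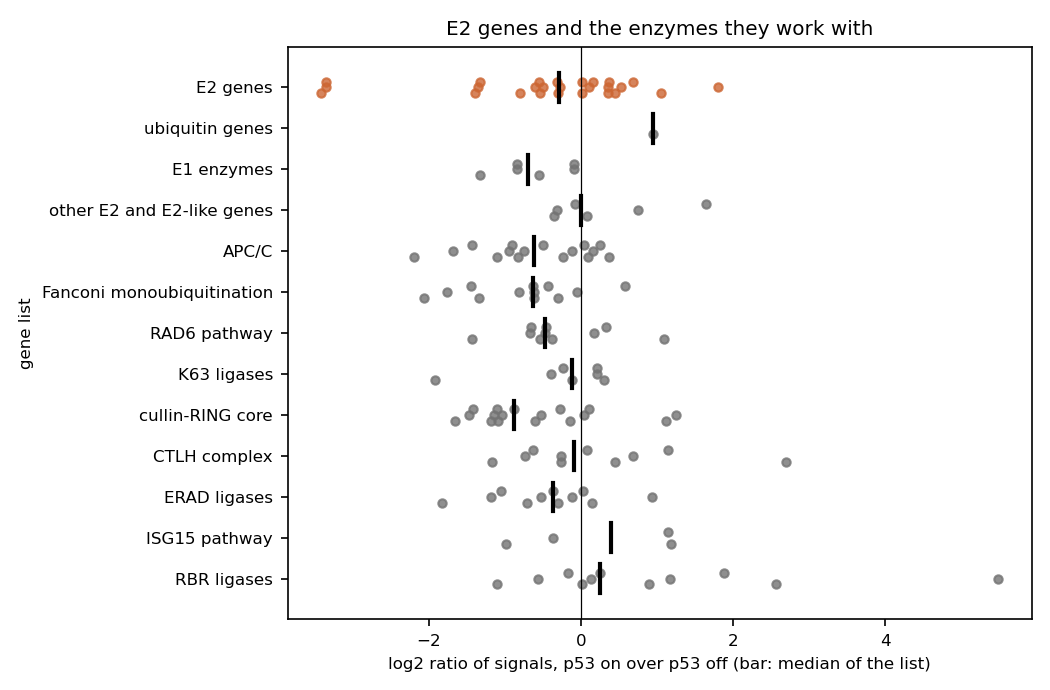
Log2 ratios (p53 on over p53 off) of the 26 E2 genes (orange) and of the measured genes of 12 lists of ubiquitin pathway genes (grey), with a black bar at each median. The medians run from -0.87 in the cullin-RING core to 0.95 in the ubiquitin genes, where 1 gene was measured.

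Over the 12 pathway lists together, 111 genes were measured. Of these, 42 (37.8%) were lower by 1.5-fold or more and 17 (15.3%) higher, beside 25.9% of all measured genes each way, with a median of -0.36, beside the -0.29 of the E2 genes. The RBR ligases, a class that takes ubiquitin from the E2 onto its own cysteine, leaned the other way, with 5 of 11 (45.5%, against the same 25.9%) higher by 1.5-fold or more, 1 lower by that size and a median of 0.25. RNF144B read 238.9 and 10705, and ARIH1 1415 and 5213. RNF144A read 66.2, under the floor, and 666.6, so it was at least 5.93-fold higher. UBE2L3, the E2 best known for this class, is among the genes not analysed here.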

How the data were processed

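Signals were measured in DLD-1 cells on 2 Affymetrix arrays, 1 per condition. The authors deposited 1 linear signal intensity per probe set, and the submitters' processing notes name MAS5. The sources used here do not give its version or its detection calls. The trimmed mean (2% off each end) was 500.1 on both arrays, and no further normalization was added. Of 54613 probe sets that were not controls, 41091 had 1 symbol in GEO's platform annotation, 1801 had several and 11721 were unnamed here. Entrez identifiers gave current RefSeq symbols for 41037 of them. They covered 19775 genes, of which 13915 were measured. A gene was measured when its brightest probe set reached the floor of 112.4 (50th percentile) on either array. Where 1 signal was under it, the fold is "at least". With 1 array per condition no test, p-value or standard error was computed, and the number of arrays limits the precision. The gene that encodes p53 is not reported here.

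The members, lists, thresholds and motifs were chosen with earlier results of these data known. All 26 genes are named. Values are given by name for at most the 3 largest absolute ratios of each pathway list. ANAPC16 and USP1, the highest ratios of their lists, were added to these. Markers of cell types, CDKN1A and MDM2 served as checks. Motif shares count genes with a match in any window of 300 bases. The ratio step was tested on simulated data. The software was Python 3.11.15 with pandas 2.3.3 and numpy 2.4.6, statsmodels 0.14.6 for loess, scipy 1.17.1, and matplotlib 3.10.9 for figures.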

Additional observations from a re-analysis of the deposited data

How the results depend on the processing

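Each value was recomputed under 12 other settings: floors at the 40th and 60th percentile, a pseudocount of 1 or of the floor, median centring, quantile normalization, loess (span 0.3), spike-in scaling, the mean of measured probe sets, no _x_at or _s_at sets, and the brightest set with p53 off or on. Of 306 values of single E2 genes, 272 moved by less than 0.59, the SD of a probe set's ratio within a gene. Many of these had little or no room to move, so the count is no measure of stability. Both other floors left every E2 value unchanged, because the brightest sets lay above them. For the 8 genes with 1 measured probe set, the choice of set could not change the value. Spike-in scaling moved every E2 gene, by 0.92. Of the genes past 2-fold, UBE2Z changed sign, at 0.39 without _x_at and _s_at sets. That setting kept 20 E2 genes, with 3 at least 2-fold lower (UBE2T, UBE2C and UBE2R2) and a median of 0.0088, beside 12.4% and 0.038 over all genes. After loess, 7 of 26 were at least 1.5-fold higher, beside 25% of all genes, and the median was -0.10. Scaled to the spike-ins, 0 were at least 2-fold higher and 14 lower, 1 was at least 1.5-fold higher and 18 lower, and the median was -1.21, where 41.4% of all genes were 2-fold and 58.7% 1.5-fold lower. On the set brightest with p53 off, 1 was at least 2-fold higher. The cause was not tested. Requiring every measured probe set past 2-fold, a setting added after the data were seen, left 1 higher gene, UBE2Q2. With 1 probe set, UBE2Q2 could not fail this rule once its reported ratio passed. UBE2J1, with all 6 probe sets higher, dropped out because its lowest was 0.75. Of the lower genes that stayed, only UBE2R2 had more than 1 measured probe set. The other counts stayed within 1.5 times the reported ones. No paired analysis was possible because each condition has 1 array.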

Other observations

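Genes with an E2 fold or an E2-like role outside the list were few. AKTIP, a variant without the catalytic cysteine that works in membrane transport, read 1707 and 5317 with p53 off and on, 3.11-fold higher, and its other probe set had a log2 ratio of 1.49. TSG101, another such variant, read 4717 and 3678, a ratio of -0.36. UBE2NL, annotated as a separate copy of UBE2N, read 840.7 and 1409, a ratio of 0.75 on an _x_at probe set, while all 3 probe sets of UBE2N were lower. How much of each signal comes from the near-identical gene was not tested. UBB, the measured ubiquitin gene, read 30581 and 59200, a ratio of 0.95.

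The annotation names a listed E2 gene together with others on 4 probe sets. A set shared by UBE2V1, PEDS1 and their readthrough transcript read 1220 and 617.6, a log2 ratio of -0.98. The other 3, which also name UBE2V2, had ratios of -0.84, -0.63 and -0.89, against -0.28 for the brightest probe set of UBE2V2 alone. These sets cannot be assigned to 1 gene and entered no count.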
